A study of Mus musculus with 16 samples.

Results

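Ruxolitinib, a small-molecule inhibitor of the Janus kinases JAK1 and JAK2, was applied to the back skin of mice each day for 4 days, and the skin was biopsied at day 5. The arrays titled as ruxolitinib at day 5 were set against all arrays titled as day 0, which gave 2 ruxolitinib arrays (mice 4 and 6) and 9 day-0 arrays (mice 1 to 9), or 11 of the 16 arrays of the study. The other arrays, 2 of mice given dimethyl sulfoxide (DMSO), the vehicle (mice 2 and 3), and 3 of mice given tofacitinib, another JAK inhibitor (mice 7, 8 and 9), entered the fit and serve below as comparisons of the same day. All animals were female mice of the inbred strain C57/B6 (the sample titles write C57/B7), 8.5 weeks old at the day-0 biopsy, with no transgene or mutation named, and what was measured was RNA of whole dorsal skin. Each day-5 mouse had been biopsied at day 0 as well, so the ruxolitinib arrays can also be set against the own day-0 array of the same animal, and all day-5 skin had both a first biopsy and a topical liquid behind it. No source used here gives the doses, and 1 array (tofacitinib, mouse 7) carries a description that names ruxolitinib while its title and treatment fields name tofacitinib. The keratins that define epidermis were among the brightest signals: 12.27 and 12.53 with ruxolitinib, against 12.86 (12.73 to 13.003) at day 0 for Krt5 of the basal layer, and 12.43 and 12.76 with ruxolitinib, against 12.89 (12.61 to 13.04) at day 0 for Krt10 of the layers above it.

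Janus kinases sit on the inner tails of cytokine receptors. When a cytokine such as an interferon, an interleukin of the gp130 or common gamma chain family, or oncostatin M binds, the kinases phosphorylate STAT proteins, which enter the nucleus and switch on target genes. Among those targets are the genes of inhibitors that shut the signal down again (Cish and the Socs family), the interferon-stimulated genes, and the immunoproteasome and peptide transporters that load MHC class I. In resting (telogen) back skin of mice of this age, hair follicles wait for signals of the hedgehog and Wnt families that start the next growth phase (anagen), and inhibition of JAK-STAT signalling is known to promote hair growth in mice.

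Values are log2 expression values per gene. Those of ruxolitinib skin are given for mouse 4 and then mouse 6, and those of day 0 as the median with the lowest and highest of the 9 arrays in brackets. Differences are ruxolitinib minus day 0 on the log2 scale with the standard error, from a limma fit on all 16 arrays in which mouse was a random block, and a gene passed at an adjusted p (Benjamini-Hochberg over 12087 genes) under 0.05. Array medians lay between 3.75 and 3.94, and control probe sets without a target reached at most 2.43, which is taken below as background. Where the mean of a group lay at or under background, its arrays were set no lower than background and the fold is given as a bound. The number of arrays, 2 with ruxolitinib, limits the precision, and in whole skin fewer cells of a type and less RNA per cell cannot be told apart. The day-0 arrays of mice 1, 3, 8 and 9 stood apart from the other 5, with lower adipocyte genes (values below), while the own day-0 arrays of mice 4 and 6 were in the larger set.

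Of the genes tested, 34% differed between ruxolitinib skin and day 0, 1512 higher (12.5%) and 2592 lower (21.4%). The changes were large for a part of them: 41 genes rose and 55 fell by at least 3 log2 units. Both ruxolitinib arrays lay above all 9 day-0 arrays for 1388 of the higher genes and below all of them for 2391 of the lower genes, against 17.1% and 24% of all genes. In the own-mouse comparison both animals moved the same way for 1489 of the genes called higher and 2574 of those called lower. Own day-0 arrays are part of the 9, so these counts are a description. With the mouse as a fixed block, a fit that rests on the own-mouse differences and is called the blocked fit below, 486 genes were higher and 838 lower. Without the ruxolitinib array of mouse 4 the counts were 644 and 1671, and without that of mouse 6 they were 637 and 1362. Calls that were lost in one of these fits, or without one day-0 or tofacitinib array, are given at the end of each paragraph with their adjusted p in brackets. Vehicle skin also differed from the same 9 day-0 arrays at 51.1% of genes (22.2% higher and 28.9% lower) and tofacitinib skin at 50.1%.

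**Figure D1:**
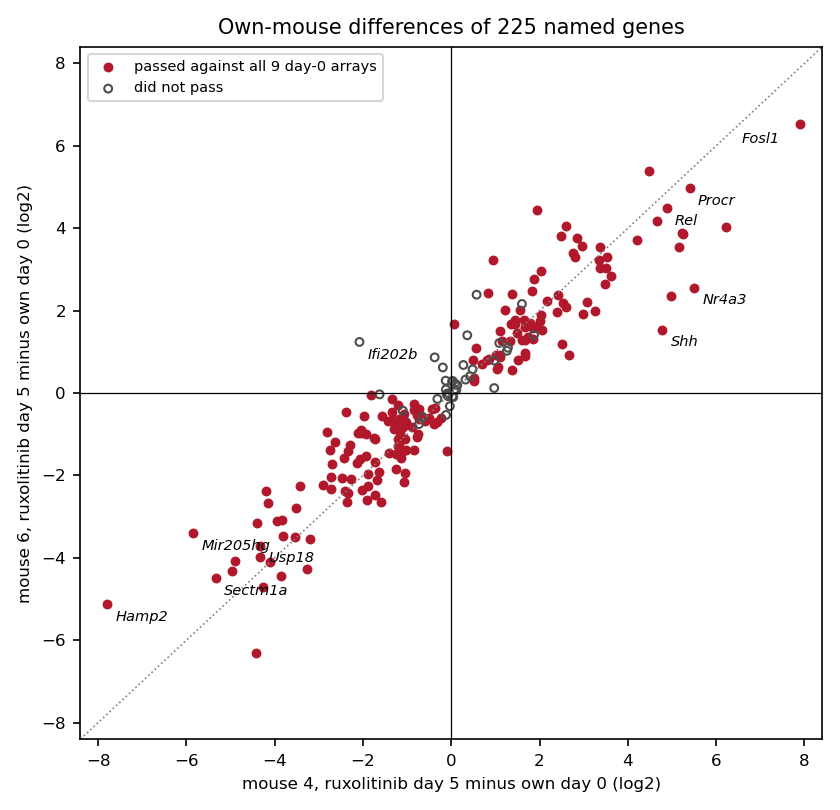
Own-mouse log2 differences, ruxolitinib day 5 minus the day-0 array of the same animal, with mouse 4 on the horizontal and mouse 6 on the vertical axis. Each point is one of the 225 genes named by rule, filled where the gene passed against all 9 day-0 arrays, and the dotted line marks equal differences. Points lie mostly near the line in the upper right and lower left, and Shh, Nr4a3 and Mir205hg moved further in mouse 4 than in mouse 6.

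The largest rises were in genes of very different tissues. Fosl1, an AP-1 subunit of activated keratinocytes, read 10.45 and 9.76 with ruxolitinib, against 3.72 (2.56 to 8.47) at day 0, and rose by 5.98 ± 1.02 (adjusted p = 0.00054). Rel, the gene of the NF-kB subunit c-Rel, read 8.53 and 8.37 with ruxolitinib, against 3.89 (3.53 to 4.42) at day 0, and rose by 4.51 ± 0.25 (adjusted p = 2.13e-07), with own-mouse differences of 4.88 in mouse 4 and 4.48 in mouse 6. Both Rel values lay far above every day-0 array, while one day-0 array (mouse 7) came close to the ruxolitinib level of Fosl1. The protein C receptor Procr (4.71 ± 0.31, adjusted p = 5.18e-07), the cytoskeletal stress gene Fam107a (4.76 ± 0.51, adjusted p = 1.96e-05), the GABA-A receptor subunit Gabra3 (at least 18.6-fold higher, adjusted p = 2.29e-05), the mechanically induced cofactor gene Ankrd1 (4.40 ± 0.88, adjusted p = 0.00168) and the nuclear receptor gene Nr4a3 (3.94 ± 0.85, adjusted p = 0.00276) followed. Cxcl13, a chemokine that draws B cells, read 7.23 and 6.40 with ruxolitinib, against 2.50 (2.01 to 3.77) at day 0, and rose by 4.29 ± 0.65 (adjusted p = 0.00024). The muscle genes Myl2 and Tnnt1, Ildr2 and the transporter gene Slc43a3 complete the 12 largest rises, at log2 differences of 4.28, 4.18, 3.96 and 3.74. For Ankrd1 (0.0597), Myl2 (0.0637) and Tnnt1 (0.0639) in the blocked fit and for Nr4a3 (0.057) without ruxolitinib mouse 4 the call was lost. Probe sets of Fosl1 (1.40 to 5.84), Fam107a (2.79 to 4.74), Ankrd1 (3.23 to 4.48) and Cxcl13 (1.94 to 4.26) differed from one another by over 1 log2 unit. 2 day-0 arrays of Fam107a, 7 day-0 arrays of Gabra3, 4 day-0 arrays of Cxcl13 and 1 day-0 array of Ildr2 were at background. Gabra3 and Cxcl13 stayed under log2 4, the filter, in every day-0 array and were kept for testing only through day-5 arrays.

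The largest falls included a hepcidin gene and genes of transport and the immune system. Hamp2, a hepcidin gene, read 2.61 and 4.76 with ruxolitinib, against 10.40 (9.87 to 11.44) at day 0, and fell by 6.76 ± 0.48 (adjusted p = 8e-07), with own-mouse differences of -7.80 in mouse 4 and -5.12 in mouse 6. Sectm1a, which encodes a ligand of CD7 on T cells, read 1.99 and 3.16 with ruxolitinib, against 7.82 (7.33 to 8.45) at day 0, and fell by 5.29 ± 0.31 (adjusted p = 2.13e-07). Slc2a5, the fructose transporter gene, read 2.39 and 2.13 with ruxolitinib, against 6.96 (6.55 to 7.80) at day 0. Both ruxolitinib arrays lay at background, and Slc2a5 was at least 24.7-fold lower (adjusted p = 8.78e-07). Rin1, a Ras effector gene, fell by 4.81 ± 0.31 (adjusted p = 4.24e-07). Usp18, the protease that turns off interferon signalling, read 2.52 and 2.68 with ruxolitinib, against 7.04 (5.66 to 7.39) at day 0, and fell by 4.18 ± 0.36 (adjusted p = 3.13e-06). The rest of the 12 were Ifitm6 (-4.99 ± 0.78, adjusted p = 0.000293), the fatty acid transport gene Slc27a3 (-4.69 ± 0.39, adjusted p = 2.15e-06), the host transcript of miR-205, Mir205hg (-4.56 ± 0.55, adjusted p = 4.37e-05), the potassium channel gene Kcnj16 (-4.54 ± 0.32, adjusted p = 8e-07), Smim5 (-4.40 ± 0.40, adjusted p = 4.38e-06), the T cell receptor gene Cd3g (-4.30 ± 0.39, adjusted p = 4.94e-06) and the G protein gene Gna14 (-4.27 ± 0.31, adjusted p = 8.78e-07). In each of these 12 genes both ruxolitinib arrays lay below all 9 day-0 arrays, which the naming rule required. Probe sets of Rin1 (-4.83 to -3.31) and Gna14 (-4.83 to -2.42) differed from one another by over 1 log2 unit. 1 ruxolitinib array of Sectm1a, 1 ruxolitinib array of Ifitm6, 1 ruxolitinib array of Kcnj16 and 1 ruxolitinib array of Cd3g were at background.

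Of the 3 Janus kinase genes tested, Jak1 and Jak2, whose products are the direct targets of the drug, did not pass on their brightest probe set. Jak1 read 8.92 and 8.78 with ruxolitinib, against 8.97 (8.54 to 9.20) at day 0. Jak2 read 10.60 and 10.75 with ruxolitinib, against 10.53 (10.45 to 10.85) at day 0. Both stayed inside the day-0 range, with log2 differences of -0.07 ± 0.18 (adjusted p = 0.788) and 0.11 ± 0.11 (adjusted p = 0.446). With the mean of its probe sets Jak2 was higher, by 0.61 ± 0.16 (adjusted p = 0.00707). Tyk2, the kinase of interferon and interleukin-12 family receptors, read 6.70 and 6.59 with ruxolitinib, against 8.08 (7.58 to 8.32) at day 0, and fell by 1.35 ± 0.21 (adjusted p = 0.000296). Of 5 STAT genes 0 rose, 4 fell and 1 did not pass (0% higher and 80% lower, against 12.5% and 21.4% of all genes). Stat5a, which relays growth hormone, prolactin and common gamma chain cytokines, read 9.75 and 9.75 with ruxolitinib, against 10.70 (10.48 to 10.90) at day 0, and fell by 0.96 ± 0.17 (adjusted p = 0.000649). Stat3, the STAT of gp130 receptors, fell by 0.55 ± 0.15 (adjusted p = 0.0122), Stat6, the STAT of interleukin-4 and interleukin-13, fell by 0.68 ± 0.17 (adjusted p = 0.00622), and Stat2, a part of the interferon-stimulated factor ISGF3, fell by 0.67 ± 0.20 (adjusted p = 0.017). Stat5b stood at 0.12 ± 0.19 (adjusted p = 0.631). Ruxolitinib and day-0 arrays overlapped for Jak1 and Jak2, and not for Tyk2 and Stat5a. Against the same day-0 arrays vehicle skin had 1 higher and 3 lower of these 5 STAT genes. The Janus kinase list had 0 and 0 in the blocked fit, and the STAT list had 0 and 1 in the blocked fit and 0 and 1 without mouse 6 (genes higher and lower). For Tyk2 (0.0637), Stat3 (0.198), Stat6 (0.173) and Stat2 (0.106) in the blocked fit, for Stat2 (0.0545) without ruxolitinib mouse 4 and for Stat3 (0.219), Stat6 (0.0817) and Stat2 (0.186) without ruxolitinib mouse 6 the call was lost. Probe sets of Jak2 (0.11 to 1.12) differed from one another by over 1 log2 unit.

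Most ligands of JAK-linked receptors were too dim to test. Of the 5 tested 2 rose, 2 fell and 1 did not pass (40% higher and 40% lower, against 12.5% and 21.4% of all genes). In vehicle skin 1 of these ligand genes was higher and 1 lower than at day 0. Clcf1, a gp130 ligand, read 8.71 and 8.73 with ruxolitinib, against 5.89 (5.08 to 6.36) at day 0, and rose by 2.88 ± 0.31 (adjusted p = 1.65e-05). Tslp, the alarmin of keratinocytes, read 7.02 and 7.66 with ruxolitinib, against 6.06 (5.26 to 6.85) at day 0, and rose by 1.46 ± 0.48 (adjusted p = 0.0304). Il7, a survival factor of T cells made by keratinocytes, read 3.30 and 3.73 with ruxolitinib, against 5.36 (4.98 to 5.85) at day 0, and fell by 1.86 ± 0.22 (adjusted p = 3.99e-05), and Ctf1, another gp130 ligand, fell by 0.53 ± 0.17 (adjusted p = 0.0228). Il15 read 4.49 and 5.46 with ruxolitinib, against 6.10 (5.20 to 6.86) at day 0, with a difference of -0.99 ± 0.42 (adjusted p = 0.0817). The receptors moved one way where they moved: of 23 tested 0 rose, 12 fell and 11 did not pass. These shares were 0% higher and 52.2% lower, against 12.5% and 21.4% of all genes. The median difference was -0.99, against -0.03 over all genes. Against the same day-0 arrays vehicle skin had 3 higher and 13 lower of these receptor genes. Between ruxolitinib and vehicle skin 0 of the 23 passed (limma), with a median difference of 0.01. Il20ra, a receptor chain of the interleukin-20 family, read 4.17 and 6.31 with ruxolitinib, against 8.68 (8.38 to 9.79) at day 0, and fell by 3.67 ± 0.52 (adjusted p = 0.000137), with mouse 4 lower than mouse 6. Ifnar1, a chain of the type I interferon receptor, read 5.04 and 5.11 with ruxolitinib, against 6.09 (5.85 to 6.41) at day 0, and fell by 1.03 ± 0.16 (adjusted p = 0.000252). Il4ra read 4.54 and 4.75 with ruxolitinib, against 6.57 (5.64 to 6.79) at day 0, and fell by 1.68 ± 0.34 (adjusted p = 0.0018). The oncostatin M receptor gene Osmr (-1.01 ± 0.18, adjusted p = 0.000904), Il15ra (-0.99 ± 0.16, adjusted p = 0.000427), Il31ra (-1.49 ± 0.36, adjusted p = 0.00548), Il22ra1 (-1.26 ± 0.25, adjusted p = 0.00161), Il20rb (-1.18 ± 0.25, adjusted p = 0.00273), Il6ra (-1.15 ± 0.30, adjusted p = 0.00834), Il13ra1 (-1.06 ± 0.29, adjusted p = 0.0126), Ifngr1 (-1.22 ± 0.41, adjusted p = 0.0337) and Crlf2, the TSLP receptor gene (-0.64 ± 0.21, adjusted p = 0.027), fell as well. The shared chain gene Il6st (gp130) read 10.81 and 10.78 with ruxolitinib, against 10.57 (9.78 to 10.88) at day 0 and did not pass (0.23 ± 0.21, adjusted p = 0.414), nor did Lifr (-0.41 ± 0.15, adjusted p = 0.0503) or the growth hormone receptor gene Ghr (0.33 ± 0.15, adjusted p = 0.0949). Ruxolitinib and day-0 arrays overlapped for Il15 and Il6st, and not for Clcf1, Tslp, Il7, Il20ra, Ifnar1 and Il4ra. The ligand list had 1 and 1 in the blocked fit, 1 and 2 without mouse 4 and 1 and 1 without mouse 6, and the receptor list had 0 and 4 in the blocked fit and 0 and 6 without mouse 4 (genes higher and lower). For Tslp (0.141), Ctf1 (0.146), Il4ra (0.0947), Osmr (0.101), Il31ra (0.0552), Il20rb (0.0586), Il6ra (0.157), Il13ra1 (0.16), Ifngr1 (0.282) and Crlf2 (0.218) in the blocked fit, for Tslp (0.0857), Il31ra (0.0795), Il20rb (0.103), Il6ra (0.152), Il13ra1 (0.251), Ifngr1 (0.173) and Crlf2 (0.0771) without ruxolitinib mouse 4, for Tslp (0.237), Ctf1 (0.264), Ifngr1 (0.166) and Crlf2 (0.237) without ruxolitinib mouse 6 and for Ifngr1 (0.0562) without day-0 mouse 6 the call was lost. Probe sets of Osmr (-1.02 to 0.55) and Il6st (-0.54 to 0.58) differed from one another by over 1 log2 unit.

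Genes of JAK-STAT feedback were read next, because STATs act directly on some of them, such as Cish and Socs3. Of 16 tested 3 rose, 5 fell and 8 did not pass (18.8% higher and 31.2% lower, against 12.5% and 21.4% of all genes). The median difference was -0.03, against -0.03 over all genes. Cish, induced by STAT5, read 6.36 and 6.81 with ruxolitinib, against 8.93 (8.10 to 9.59) at day 0, lower in both animals than in every day-0 array, and fell by 2.33 ± 0.45 (adjusted p = 0.00134). Socs3, induced by STAT3, read 7.92 and 8.11 with ruxolitinib, against 9.88 (9.13 to 10.53) at day 0, again with no overlap, and fell by 1.85 ± 0.29 (adjusted p = 0.000314). The phosphatase gene Ptpn6 (SHP-1, also strong in blood cells) read 5.31 and 5.64 with ruxolitinib, against 7.44 (7.13 to 8.07) at day 0, and fell by 2.10 ± 0.23 (adjusted p = 2.4e-05), Pias3, an inhibitor of STAT3, fell by 1.19 ± 0.16 (adjusted p = 0.000121), and the NF-kB cofactor gene Bcl3 fell by 1.42 ± 0.38 (adjusted p = 0.0107). The STAT target Pim1 read 10.97 and 11.05 with ruxolitinib, against 11.21 (10.92 to 11.53) at day 0, overlapping the day-0 arrays, and stood at -0.20 ± 0.16 (adjusted p = 0.341). Small rises were measured for the phosphatase gene Ptpn2 (0.58 ± 0.14, adjusted p = 0.00564), Socs4 (0.45 ± 0.14, adjusted p = 0.0259) and the repressor gene Bcl6 (0.35 ± 0.13, adjusted p = 0.0488). Vehicle skin averaged 6.86 for Cish and 9.46 for Socs3, and the difference of ruxolitinib from vehicle was -0.26 ± 0.59 (adjusted p = 0.848) for Cish and -1.42 ± 0.38 (adjusted p = 0.0919) for Socs3. Against the same day-0 arrays vehicle skin had 3 higher and 4 lower of these feedback genes. The feedback list had 1 and 4 in the blocked fit, 1 and 5 without mouse 4 and 1 and 4 without mouse 6 (genes higher and lower). For Bcl3 (0.087), Socs4 (0.0595) and Bcl6 (0.17) in the blocked fit, for Ptpn2 (0.0643) and Bcl6 (0.201) without ruxolitinib mouse 4, for Bcl3 (0.141), Socs4 (0.295) and Bcl6 (0.182) without ruxolitinib mouse 6 and for Bcl6 without any one of 8 day-0 arrays (0.0563 to 0.0791) the call was lost. Probe sets of Ptpn6 (-2.12 to -0.99), Ptpn2 (0.56 to 2.54) and Socs4 (0.43 to 1.52) differed from one another by over 1 log2 unit.

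The promoters of Cish and Socs3 are shown because both genes fell and their windows hold the GAS element, which STAT dimers bind (TTCNNNGAA, the same on both strands). RefSeq promoters (GRCm38.p6, 250 bases before to 50 after the start) were at hand for 11 of the 16 feedback genes, and 3 of these (Bcl6, which rose, Cish and Socs3) held the element, against 8.3% of 32851 promoters. The other 3 feedback genes that fell, Ptpn6, Pias3 and Bcl3, had promoters at hand with no match. Capitals mark its matches in the promoters of Cish (chr9:107296409-107296708, plus strand) and Socs3 (chr11:117969317-117969616, minus strand).
Cish: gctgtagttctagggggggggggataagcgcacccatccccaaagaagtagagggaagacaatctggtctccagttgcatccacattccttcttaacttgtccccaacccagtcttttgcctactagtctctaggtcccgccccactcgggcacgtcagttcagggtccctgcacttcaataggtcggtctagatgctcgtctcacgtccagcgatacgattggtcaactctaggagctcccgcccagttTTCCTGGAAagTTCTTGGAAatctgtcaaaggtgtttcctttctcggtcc
Socs3: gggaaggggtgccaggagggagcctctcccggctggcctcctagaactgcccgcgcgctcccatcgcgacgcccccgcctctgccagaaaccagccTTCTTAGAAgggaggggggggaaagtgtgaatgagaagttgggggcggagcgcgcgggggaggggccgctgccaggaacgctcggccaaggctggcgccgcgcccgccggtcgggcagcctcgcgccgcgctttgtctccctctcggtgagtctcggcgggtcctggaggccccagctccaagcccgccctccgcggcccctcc
Cish held 2 matches, at the start site itself and just after it, and Socs3 held 1 upstream of its start. A match describes the letters of the window and is no measure of binding.

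**Figure D2:**
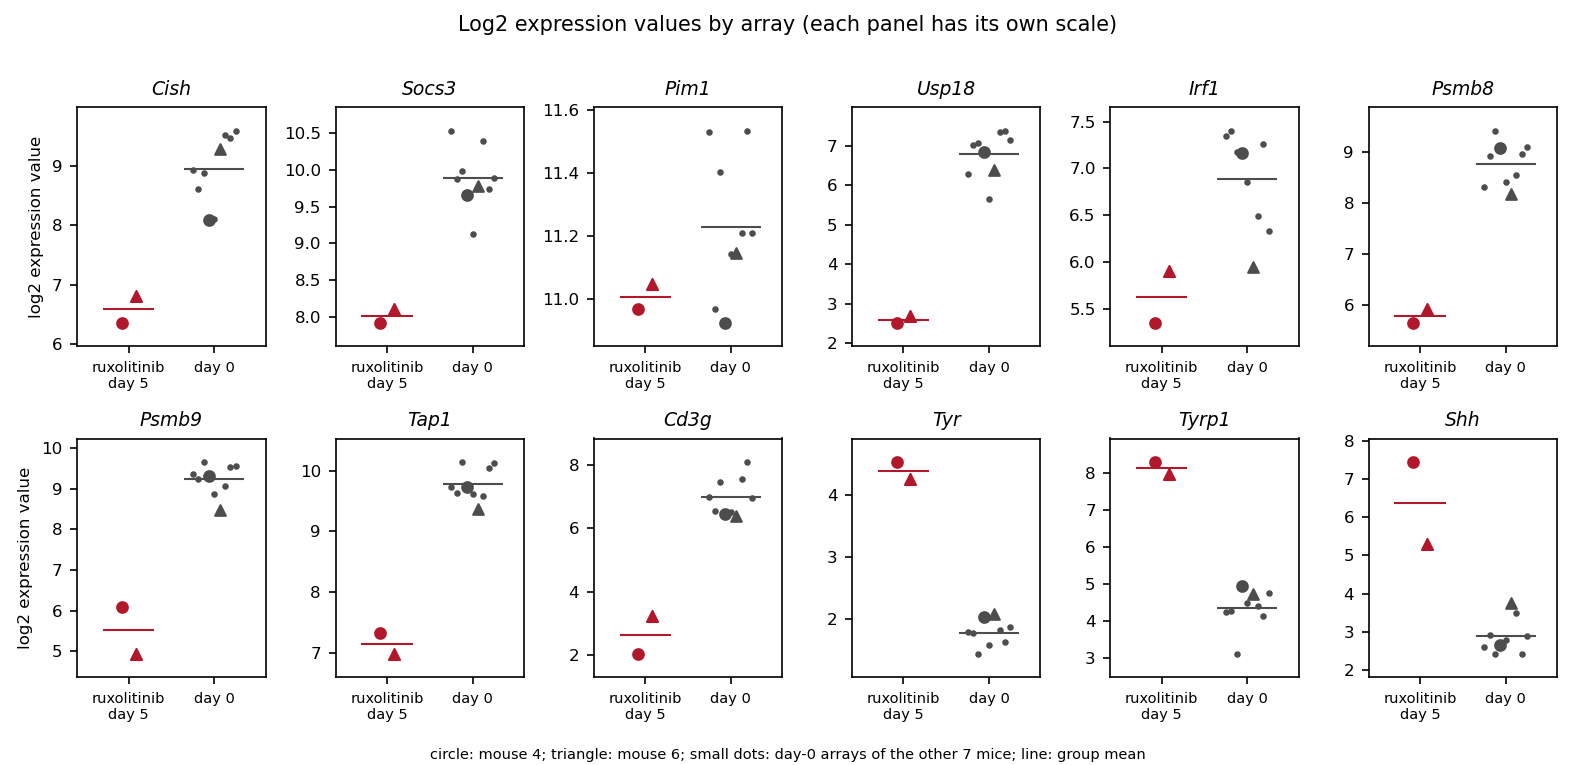
Log2 expression values of 12 genes by array, with ruxolitinib day 5 on the left and day 0 on the right of each panel. Circles are mouse 4, triangles mouse 6, small dots the day-0 arrays of the other 7 mice and lines the group means; the scale differs between panels. Cish, Socs3, Usp18, Irf1, Psmb8, Psmb9, Tap1 and Cd3g lay below and Tyr, Tyrp1 and Shh above every day-0 array in both mice, while Pim1 overlapped.

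Interferon-stimulated genes were lower or did not pass, and 0 rose. Of 28 type I interferon-stimulated genes 0 rose, 15 fell and 13 did not pass (median difference -0.996, against -0.03 over all genes). The share that fell was 53.6%, against 21.4% of all genes. Vehicle skin against the same day-0 arrays also had 0 higher and 15 lower of these 28 genes (median -0.86). Beside Usp18, Parp9 read 6.05 and 6.60 with ruxolitinib, against 8.67 (7.80 to 8.94) at day 0, and fell by 2.19 ± 0.29 (adjusted p = 9.65e-05). Parp14, its relative, read 6.33 and 6.09 with ruxolitinib, against 8.33 (7.50 to 8.68) at day 0, and fell by 2.03 ± 0.25 (adjusted p = 5.16e-05), and Ifi27, a mitochondrial interferon-induced protein gene, fell by 0.80 ± 0.12 (adjusted p = 0.000253). Genes of the interferon-gamma response were at a median of -1.12, and of 14 tested 0 rose, 6 fell (42.9%) and 8 did not pass. In vehicle skin 0 of these 14 were higher and 3 lower than at day 0 (median -0.80). Irf1, the transcription factor that carries much of that response, read 5.35 and 5.91 with ruxolitinib, against 7.17 (5.95 to 7.40) at day 0, and fell by 1.22 ± 0.36 (adjusted p = 0.0173). The own-mouse differences of Irf1 were -1.82 in mouse 4 and -0.04 in mouse 6, and in mouse 6 it was thus near 0. The GTPase genes Igtp (-1.45 ± 0.36, adjusted p = 0.00641) and Iigp1 (-2.27 ± 0.61, adjusted p = 0.011) and the checkpoint ligand gene Cd274 (PD-L1, -1.65 ± 0.46, adjusted p = 0.0125) fell too. The type I interferon list had 0 and 8 in the blocked fit, and the interferon-gamma list had 0 and 3 in the blocked fit, 0 and 1 without mouse 4 and 0 and 2 without mouse 6 (genes higher and lower). For Ifi27 (0.0595) and Irf1 (0.294) in the blocked fit, for Irf1 (0.254), Iigp1 (0.109) and Cd274 (0.262) without ruxolitinib mouse 4 and for Igtp (0.116) and Iigp1 (0.0623) without ruxolitinib mouse 6 the call was lost. Probe sets of Parp14 (-2.05 to -0.89) differed from one another by over 1 log2 unit.

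Nearly all MHC class I loading genes fell. Of 12 tested 0 rose, 11 fell and 1 did not pass, with a median of -1.02. These shares were 0% higher and 91.7% lower, against 12.5% and 21.4% of all genes. Psmb9, a catalytic subunit of the immunoproteasome that cuts peptides for class I, read 6.10 and 4.93 with ruxolitinib, against 9.30 (8.48 to 9.67) at day 0, and fell by 3.69 ± 0.38 (adjusted p = 1.29e-05). Its partner subunit Psmb8 read 5.64 and 5.91 with ruxolitinib, against 8.91 (8.18 to 9.42) at day 0, and fell by 2.98 ± 0.30 (adjusted p = 1.03e-05). Tap1, a subunit of the peptide transporter, read 7.32 and 6.98 with ruxolitinib, against 9.73 (9.37 to 10.15) at day 0, and fell by 2.60 ± 0.27 (adjusted p = 1.45e-05). Its other subunit Tap2 read 4.56 and 4.68 with ruxolitinib, against 6.64 (6.28 to 6.97) at day 0, and fell by 1.95 ± 0.23 (adjusted p = 3.69e-05). Psmb9 and Tap1 lie head to head on chromosome 17, and their promoter windows overlap. No ruxolitinib array reached the day-0 range in any of these 4 genes. Against vehicle skin of the same day the list had a median difference of 0.04, and 0 of 12 members passed (limma; 0.521% of all genes did, and 0 of the 12 had an unadjusted p under 0.05, as did 15.7% of all genes). In vehicle skin against the same day-0 arrays the count was 0 higher and 12 lower of these class I genes. The class I list had 0 and 6 in the blocked fit (genes higher and lower). Probe sets of Psmb8 (-2.99 to -0.42) differed from one another by over 1 log2 unit.

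Promoters of Irf1 (chr11:53769764-53770063, plus strand) and Psmb8 (chr17:34197945-34198244, plus strand) are shown as 2 of the interferon and class I genes that fell and hold a GAS element, in capitals. The element was found in 2 of 3 interferon-gamma genes (Irf1 and Igtp) and 1 of 3 class I genes named and matched to a promoter. It occurs in 8.3% of all promoters. A gene counted if any of its promoters held a match, and the other Irf1 promoter at hand held none. Of the 4 type I interferon genes named, 0 had a promoter at hand.
Irf1: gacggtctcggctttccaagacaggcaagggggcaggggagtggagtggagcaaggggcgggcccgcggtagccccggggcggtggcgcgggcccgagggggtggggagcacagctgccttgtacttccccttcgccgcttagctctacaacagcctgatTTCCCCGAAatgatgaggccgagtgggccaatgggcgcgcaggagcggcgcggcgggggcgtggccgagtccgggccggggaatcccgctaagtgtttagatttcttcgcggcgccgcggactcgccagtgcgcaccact
Psmb8: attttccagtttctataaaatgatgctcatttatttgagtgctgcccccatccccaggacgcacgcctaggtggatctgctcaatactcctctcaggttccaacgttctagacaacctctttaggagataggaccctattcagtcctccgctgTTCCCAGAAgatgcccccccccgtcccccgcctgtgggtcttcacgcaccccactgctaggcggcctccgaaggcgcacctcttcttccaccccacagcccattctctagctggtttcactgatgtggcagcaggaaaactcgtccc
In both the match lies upstream of the start site, within 100 bases of it.

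T cell genes were much lower in ruxolitinib skin. Of 13 T and NK cell markers 0 rose, 11 fell and 2 did not pass (median -1.64). These shares were 0% higher and 84.6% lower, against 12.5% and 21.4% of all genes. The CD3 chain gene Cd3e read 5.48 and 5.90 with ruxolitinib, against 8.59 (8.12 to 9.37) at day 0. Cd3g, another CD3 chain, read 2.03 and 3.24 with ruxolitinib, against 6.95 (6.40 to 8.10) at day 0. Cd7, a T and NK cell surface protein gene, read 2.80 and 3.10 with ruxolitinib, against 5.57 (4.81 to 6.59) at day 0. Nkg7, a cytotoxic granule gene, read 2.24 and 1.87 with ruxolitinib, against 4.73 (4.01 to 5.75) at day 0. Nkg7 thus lay at background in both ruxolitinib arrays, at least 4.83-fold lower (adjusted p = 0.000217). Cd3e, Cd3g and Cd7 fell (-2.93 ± 0.42, adjusted p = 0.000155, then -4.30 ± 0.39, adjusted p = 4.94e-06, then -2.68 ± 0.37, adjusted p = 0.000127), with no ruxolitinib array in the day-0 range. The list means were 4.26 and 4.42 in ruxolitinib skin, against 5.75 to 6.86 at day 0. Only 2 B cell genes were bright enough to test: the adaptor gene Blnk fell by 0.58 ± 0.16 (adjusted p = 0.0133) and the immunoglobulin gene Ighm stood at 0.71 ± 0.47 (adjusted p = 0.251). Vehicle skin, set against these day-0 arrays, had 0 higher and 11 lower of these T and NK cell markers. For Blnk (0.174) in the blocked fit and for Blnk (0.202) without ruxolitinib mouse 4 the call was lost.

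Myeloid markers are given by cell type. Of 18 macrophage and monocyte markers 8 rose, 2 fell and 8 did not pass (median 0.80). These shares were 44.4% higher and 11.1% lower, against 12.5% and 21.4% of all genes. The scavenger receptor gene Cd163 read 8.39 and 8.32 with ruxolitinib, against 6.20 (4.79 to 7.62) at day 0, and rose by 2.28 ± 0.57 (adjusted p = 0.00691). The complement genes C1qa and C1qc, made by tissue macrophages, rose (1.63 ± 0.34, adjusted p = 0.0022, then 1.69 ± 0.32, adjusted p = 0.00115). Lyve1, found on some macrophages and on lymphatic endothelium, rose by 1.78 ± 0.23 (adjusted p = 7.17e-05). Of 8 mast cell markers 7 rose, 1 fell and 0 did not pass (87.5% higher and 12.5% lower, median 1.73). Hdc, the histamine-forming enzyme gene, read 5.94 and 6.11 with ruxolitinib, against 4.12 (2.55 to 4.84) at day 0. The chymase gene Cma1 read 5.95 and 6.23 with ruxolitinib, against 3.84 (3.26 to 5.31) at day 0. The tryptase gene Tpsb2 read 4.63 and 5.49 with ruxolitinib, against 3.42 (2.64 to 4.26) at day 0. These 3 rose (2.10 ± 0.47, adjusted p = 0.00356, then 1.95 ± 0.46, adjusted p = 0.00513, then 1.55 ± 0.40, adjusted p = 0.0086). Hpgds, a prostaglandin D synthase gene, read 2.61 and 3.49 with ruxolitinib, against 6.75 (6.16 to 7.78) at day 0, and fell by 3.70 ± 0.45 (adjusted p = 4.4e-05). Among 13 Langerhans and dendritic cell markers 3 rose, 5 fell and 5 did not pass (23.1% higher and 38.5% lower). Cd83, a marker of mature dendritic cells, fell by 2.91 ± 0.45 (adjusted p = 0.000294), the MHC class II genes Cd74 and H2-DMa fell (-1.18 ± 0.26, adjusted p = 0.00356, then -1.85 ± 0.42, adjusted p = 0.00412), and the dendritic cell factor gene Zbtb46 rose by 1.54 ± 0.31 (adjusted p = 0.00173). Neutrophil genes were mostly too dim, and of 4 tested 1 rose, 1 fell and 2 did not pass (0 and 1, higher and lower, without mouse 4). Lcn2 rose by 0.93 ± 0.28 (adjusted p = 0.0188), Mmp9, a gelatinase gene described with the metalloproteinases below, fell, and S100a8 and S100a9, also made by keratinocytes, stood at 0.69 ± 0.35 (adjusted p = 0.141) and 1.04 ± 0.54 (adjusted p = 0.145). The ruxolitinib arrays lay outside the day-0 range for Cd163, Hdc, Cma1, Tpsb2 and Hpgds. Of the neutrophil genes 25% were higher and 25% lower. In vehicle skin 9 macrophage, 3 mast cell, 3 Langerhans and dendritic cell and 0 neutrophil markers were higher than at day 0. Lower than at day 0 in vehicle skin were 1, 1, 2 and 1 of them. The macrophage list had 6 and 0 in the blocked fit, 4 and 0 without mouse 4 and 4 and 1 without mouse 6, the mast cell list had 1 and 1 in the blocked fit, 4 and 1 without mouse 4 and 1 and 1 without mouse 6, and the Langerhans and dendritic cell list had 1 and 0 in the blocked fit, 2 and 2 without mouse 4 and 1 and 4 without mouse 6 (genes higher and lower). For Cma1 (0.0691), Tpsb2 (0.0876), Cd83 (0.0604), Cd74 (0.123), H2-DMa (0.0929), Zbtb46 (0.0787) and Lcn2 (0.137) in the blocked fit, for Cd163 (0.0692), Cd74 (0.0603) and Lcn2 (0.252) without ruxolitinib mouse 4 and for Cd163 (0.0513), Cma1 (0.0698), Tpsb2 (0.166) and H2-DMa (0.0515) without ruxolitinib mouse 6 the call was lost. 1 day-0 array of Lcn2 was at background.

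Chemokine genes went both ways: of 19 tested 4 rose, 6 fell and 9 did not pass (21.1% higher and 31.6% lower, against 12.5% and 21.4% of all genes). In vehicle skin 5 of these chemokine genes were higher and 7 lower than at day 0. Cxcl14, a constitutive chemokine of keratinocytes, read 8.75 and 8.36 with ruxolitinib, against 10.75 (10.42 to 11.51) at day 0. Cx3cl1, the fractalkine gene, read 3.19 and 3.10 with ruxolitinib, against 4.53 (4.29 to 4.86) at day 0. Ackr2, a receptor that clears chemokines, read 4.18 and 4.75 with ruxolitinib, against 8.13 (7.72 to 9.23) at day 0. The 3 genes, with no overlap in any, fell (-2.33 ± 0.24, adjusted p = 1.15e-05, then -1.40 ± 0.19, adjusted p = 8.97e-05, then -3.85 ± 0.42, adjusted p = 2.22e-05). Xcl1, a chemokine of T and NK cells, read 1.53 and 1.45 with ruxolitinib, against 3.63 (3.40 to 4.72) at day 0. Its ruxolitinib arrays lay at background, and Xcl1 was at least 2.61-fold lower (adjusted p = 3.97e-05). Of 14 IL-1 family genes 0 rose, 10 fell and 4 did not pass (0% higher and 71.4% lower, median -1.09). Vehicle skin had 0 higher and 13 lower of these 14 genes against day 0 (median -1.59). The antagonist gene Il1rn read 7.11 and 8.10 with ruxolitinib, against 10.16 (9.23 to 10.52) at day 0, and fell by 2.37 ± 0.35 (adjusted p = 0.000179). The alarmin gene Il33 read 8.14 and 8.92 with ruxolitinib, against 10.21 (9.86 to 10.98) at day 0, and fell by 1.71 ± 0.30 (adjusted p = 0.000672), and Casp1, which cleaves interleukin-1 beta, and the receptor gene Il18r1 fell (-1.05 ± 0.21, adjusted p = 0.00163, then -1.20 ± 0.27, adjusted p = 0.00396). Among 17 NF-kB genes 2 rose, 9 fell and 6 did not pass (11.8% higher and 52.9% lower), and vehicle skin had 1 higher and 7 lower. The kinase gene Ikbke read 6.59 and 6.42 with ruxolitinib, against 8.58 (7.87 to 9.15) at day 0, and fell by 2.09 ± 0.25 (adjusted p = 3.9e-05), and Relb fell by 1.60 ± 0.32 (adjusted p = 0.00148). The 2 that rose were Rel and Nfkbiz, the gene of a nuclear IkB protein. Nfkbiz read 11.70 and 11.81 with ruxolitinib, against 10.71 (9.97 to 11.03) at day 0, and rose by 1.20 ± 0.25 (adjusted p = 0.00249). The IL-1 list had 0 and 1 in the blocked fit, 0 and 3 without mouse 4 and 0 and 6 without mouse 6, and the NF-kB list had 3 and 1 in the blocked fit, 2 and 5 without mouse 4 and 3 and 4 without mouse 6 (genes higher and lower). For Il33 (0.0551), Casp1 (0.1), Il18r1 (0.137) and Relb (0.1) in the blocked fit and for Il18r1 (0.103) without ruxolitinib mouse 4 the call was lost. Probe sets of Cxcl14 (-3.68 to -2.33) and Il1rn (-3.03 to -1.98) differed from one another by over 1 log2 unit.

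Most pigment genes rose. Of 15 melanocyte and pigment genes 9 rose, 0 fell and 6 did not pass (60% higher and 0% lower, against 12.5% and 21.4% of all genes). The median difference was 1.57 against -0.03 over all genes, with medians of 1.22 and 1.04 within mice 4 and 6. Tyr, which starts melanin synthesis, was at background in all 9 day-0 arrays and read 4.55 and 4.26 with ruxolitinib, against 1.79 (1.43 to 2.08) at day 0, at least 3.91-fold higher with ruxolitinib (adjusted p = 5.61e-06). Tyr was kept for testing (above log2 4 in at least 2 arrays) only through inhibitor arrays, where it is high. Its pass is therefore no independent support. Tyrp1 read 8.30 and 7.97 with ruxolitinib, against 4.39 (3.11 to 4.95) at day 0, and rose by 3.74 ± 0.39 (adjusted p = 1.39e-05), with own-mouse differences of 3.34 in mouse 4 and 3.23 in mouse 6. Pmel, whose protein forms the fibrils of the pigment granule, read 7.40 and 6.79 with ruxolitinib, against 4.25 (3.80 to 4.98) at day 0, and rose by 2.73 ± 0.32 (adjusted p = 3.16e-05). Kitl, the ligand of the melanocyte and mast cell receptor KIT, read 9.32 and 9.49 with ruxolitinib, against 7.79 (7.49 to 8.40) at day 0, and rose by 1.57 ± 0.22 (adjusted p = 0.000131). Tyr was at background in both vehicle arrays as well, and its level in ruxolitinib skin was at least 3.91-fold higher (adjusted p = 0.00456) than in vehicle skin. Tyrp1 and Pmel were higher than in vehicle skin by 3.42 ± 0.51 (adjusted p = 0.012) and 3.13 ± 0.41 (adjusted p = 0.00456), while Kitl stood at -0.03 ± 0.29 (adjusted p = 0.968). With the day-0 arrays as control, vehicle skin had 2 higher and 2 lower of these pigment genes. Against vehicle the call was lost for Tyr (0.248), Tyrp1 (0.266) and Pmel (0.248) in the blocked fit, for Tyr (0.063), Tyrp1 (0.0922) and Pmel (0.063) without ruxolitinib mouse 4, for Tyrp1 (0.0589) without ruxolitinib mouse 6 and for Tyr (0.0731), Tyrp1 (0.0969) and Pmel (0.0676) without vehicle mouse 2. Probe sets of Tyrp1 (1.76 to 3.87) differed from one another by over 1 log2 unit.

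The melanocyte factor MITF binds the sequence TCATGTG, the core of the M-box, which was searched on both strands and occurs in 3.77% of the promoters. It was present in 2 of 3 named pigment genes with a promoter, Tyr (chr7:87493463-87493762, minus strand) and Tyrp1 (chr4:80833963-80834262, plus strand), shown here with the core in capitals because both genes rose against day 0.
Tyr: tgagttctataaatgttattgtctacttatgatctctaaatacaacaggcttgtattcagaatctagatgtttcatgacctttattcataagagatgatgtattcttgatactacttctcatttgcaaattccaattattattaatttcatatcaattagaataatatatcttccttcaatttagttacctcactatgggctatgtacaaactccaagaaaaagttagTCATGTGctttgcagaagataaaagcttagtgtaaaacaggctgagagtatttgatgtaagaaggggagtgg
Tyrp1: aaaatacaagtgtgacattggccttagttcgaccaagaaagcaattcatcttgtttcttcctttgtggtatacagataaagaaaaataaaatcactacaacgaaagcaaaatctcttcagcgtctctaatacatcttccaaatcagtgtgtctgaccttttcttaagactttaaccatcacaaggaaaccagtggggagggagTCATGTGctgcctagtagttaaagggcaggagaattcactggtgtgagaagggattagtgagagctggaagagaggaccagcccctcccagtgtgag
In each of the pair the core is found once, within the last 50 bases before the start site.

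Hair follicle signals changed in both directions. Sonic hedgehog (Shh), the ligand with which the growing follicle drives its own expansion, read 7.45 and 5.30 with ruxolitinib, against 2.80 (2.43 to 3.76) at day 0, above all day-0 arrays in both mice, and rose by 3.45 ± 0.60 (adjusted p = 0.000657). Mouse 6 stood at -2.15 log2 units relative to mouse 4, with own-mouse differences of 4.78 in mouse 4 and 1.54 in mouse 6. The hedgehog coreceptor genes Boc, Cdon and Gas1 fell (-1.37 ± 0.22, adjusted p = 0.000406, then -0.86 ± 0.16, adjusted p = 0.000932, then -0.90 ± 0.19, adjusted p = 0.0022). Of 11 hedgehog genes 2 rose, 4 fell and 5 did not pass (18.2% higher and 36.4% lower, against 12.5% and 21.4% of all genes). In vehicle skin 0 of these hedgehog genes were higher and 7 lower than at day 0. More Wnt genes fell than rose: of 39 tested 7 rose, 15 fell and 17 did not pass (17.9% higher and 38.5% lower), with a median of -0.57. Vehicle skin had 5 higher and 20 lower of these Wnt genes against day 0 (median -0.86). The ligand gene Wnt3 read 5.09 and 5.46 with ruxolitinib, against 9.30 (8.30 to 9.48) at day 0. Wnt3a read 2.90 and 3.55 with ruxolitinib, against 5.95 (5.25 to 7.19) at day 0. Wnt7b read 3.57 and 3.54 with ruxolitinib, against 6.11 (5.17 to 7.02) at day 0, all without overlap. The receptor gene Fzd10 read 2.50 and 2.49 with ruxolitinib, against 6.03 (5.32 to 6.61) at day 0. All 4 fell (-3.72 ± 0.33, adjusted p = 4.03e-06, then -2.76 ± 0.37, adjusted p = 8.85e-05, then -2.59 ± 0.39, adjusted p = 0.000238, then -3.47 ± 0.31, adjusted p = 4.46e-06). Of 24 BMP pathway genes, whose signals hold follicle stem cells at rest, 5 rose, 5 fell and 14 did not pass (20.8% higher and 20.8% lower). Vehicle skin had 7 higher and 10 lower of these BMP genes, and 4 and 5 of the TGF-beta and activin genes below. Bmp4 read 5.24 and 5.69 with ruxolitinib, against 7.94 (7.28 to 8.14) at day 0, and fell by 2.36 ± 0.25 (adjusted p = 1.59e-05). Bmp2 fell by 1.14 ± 0.18 (adjusted p = 0.000265). Fgf18, a growth factor of resting follicles placed on this list, read 5.95 and 5.64 with ruxolitinib, against 8.76 (8.16 to 9.47) at day 0, and fell by 3.05 ± 0.32 (adjusted p = 1.59e-05). Bmp5 read 4.05 and 6.29 with ruxolitinib, against 1.97 (1.36 to 2.88) at day 0, at least 6.29-fold higher (adjusted p = 0.000296) with ruxolitinib, and stood higher in mouse 6 than in mouse 4. TGF-beta and activin genes went both ways (of 21 tested 5 rose, 6 fell and 10 did not pass, 23.8% higher and 28.6% lower), with the receptor gene Tgfbr1 (0.84 ± 0.15, adjusted p = 0.000699) and the SMAD repressor gene Skil (0.82 ± 0.16, adjusted p = 0.00126) higher, and Acvr1b (-0.67 ± 0.13, adjusted p = 0.00128) and the latency gene Ltbp4 (-0.97 ± 0.17, adjusted p = 0.000763) lower. The hedgehog list had 1 and 1 in the blocked fit, 1 and 3 without mouse 4 and 1 and 3 without mouse 6, the Wnt list had 1 and 6 in the blocked fit, 2 and 10 without mouse 4 and 2 and 12 without mouse 6, the BMP list had 3 and 4 in the blocked fit, 3 and 4 without mouse 4 and 3 and 6 without mouse 6, and the TGF-beta list had 2 and 2 in the blocked fit, 2 and 3 without mouse 4 and 2 and 3 without mouse 6 (genes higher and lower). For Boc (0.0637), Cdon (0.0651), Gas1 (0.0869), Wnt7b (0.0518) and Acvr1b (0.103) in the blocked fit and for Gas1 (0.11) without ruxolitinib mouse 4 the call was lost. 1 day-0 array of Shh and 7 day-0 arrays of Bmp5 were at background. Both genes stayed under the filter (log2 4) in every day-0 array and were kept for testing only through day-5 arrays.

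Follicle compartments followed no single course. Of 18 dermal papilla genes 7 rose, 1 fell and 10 did not pass (38.9% higher and 5.56% lower, against 12.5% and 21.4% of all genes). Rspo3, a Wnt amplifier of papilla cells, read 3.16 and 3.18 with ruxolitinib, against 6.98 (6.65 to 8.17) at day 0, and fell by 4.02 ± 0.37 (adjusted p = 4.99e-06). The papilla genes that rose included the endothelin receptor gene Ednrb (2.86 ± 0.44, adjusted p = 0.000281), the Notch target gene Hey2 (2.01 ± 0.25, adjusted p = 4.92e-05) and the proteoglycan gene Vcan (2.23 ± 0.41, adjusted p = 0.00085), which dermal fibroblasts and vessels also express. Of 17 bulge stem cell genes 0 rose, 8 fell and 9 did not pass (0% higher and 47.1% lower, median -0.44). Nfatc1, which keeps bulge cells quiescent downstream of BMP, read 9.50 and 9.20 with ruxolitinib, against 10.20 (9.98 to 10.38) at day 0, and fell by 0.84 ± 0.12 (adjusted p = 0.000155). Krt15 and Col17a1, which are shared with the basal epidermis, fell (-0.96 ± 0.15, adjusted p = 0.000299, then -1.15 ± 0.15, adjusted p = 9.49e-05). Among 16 regulators of matrix, sheath and shaft 3 rose, 4 fell and 9 did not pass (18.8% higher and 25% lower). The inner root sheath keratin gene Krt25 read 5.37 and 4.44 with ruxolitinib, against 2.25 (1.95 to 2.82) at day 0, at least 5.38-fold higher (adjusted p = 0.000144) with ruxolitinib, while the sheath factor gene Gata3 (-1.80 ± 0.44, adjusted p = 0.00602), the hair medulla factor gene Foxq1 (-1.72 ± 0.29, adjusted p = 0.000445) and the hair keratin gene Krt32 (-1.03 ± 0.23, adjusted p = 0.00373) fell. The ruxolitinib arrays lay outside the day-0 range for Rspo3, Nfatc1 and Krt25. In vehicle skin against day 0 the counts higher and lower were 6 and 4 for papilla and 0 and 8 for bulge genes. For the matrix, sheath and shaft regulators they were 0 and 7. The papilla list had 4 and 1 in the blocked fit and 4 and 2 without mouse 6, the bulge list had 0 and 3 in the blocked fit and 0 and 5 without mouse 4, and the shaft and sheath list had 1 and 2 in the blocked fit, 1 and 3 without mouse 4 and 3 and 2 without mouse 6 (genes higher and lower). For Krt15 (0.0567), Gata3 (0.137) and Krt32 (0.1) in the blocked fit, for Gata3 (0.252) without ruxolitinib mouse 4 and for Krt32 (0.0638) without ruxolitinib mouse 6 the call was lost. 8 day-0 arrays of Krt25 were at background. Krt25 stayed under the filter (log2 4) in every day-0 array and was kept for testing only through day-5 arrays.

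In the epidermis, most basal keratinocyte genes fell, while most stress keratin and wound-edge genes either rose or did not pass. Of 15 basal keratinocyte markers 1 rose, 13 fell and 1 did not pass (median -0.61), and the list mean was 10.03 and 10.30 with ruxolitinib against 10.81 to 11.19 at day 0. These shares were 6.67% higher and 86.7% lower, against 12.5% and 21.4% of all genes. In vehicle skin 2 of these basal genes were higher and 12 lower than at day 0 (median -0.83). Itgb4, an integrin of the hemidesmosome that anchors the epidermis, read 6.22 and 6.27 with ruxolitinib, against 8.66 (7.77 to 9.22) at day 0, and fell by 2.40 ± 0.33 (adjusted p = 0.000107). Lamb3, of the laminin beneath it, read 8.26 and 8.98 with ruxolitinib, against 10.30 (9.72 to 10.59) at day 0, and fell by 1.57 ± 0.25 (adjusted p = 0.00035). Of 19 stress keratins and wound-edge genes 8 rose, 2 fell and 9 did not pass (42.1% higher and 10.5% lower), and vehicle skin had 10 higher and 2 lower. Krt16, a keratin of stressed epidermis, read 10.003 and 10.22 with ruxolitinib, against 7.69 (6.20 to 8.32) at day 0, and rose by 2.88 ± 0.52 (adjusted p = 0.000788). The cornified envelope gene Sprr1b read 10.73 and 10.41 with ruxolitinib, against 7.28 (4.51 to 8.74) at day 0, and rose by 3.72 ± 0.78 (adjusted p = 0.00235), and the simple-epithelium keratin gene Krt18 was at least 2.55-fold higher (adjusted p = 0.0044). Krt17, another stress keratin that is also abundant in the follicle, fell by 1.06 ± 0.17 (adjusted p = 0.000406). Among 36 differentiation genes 4 rose, 4 fell and 28 did not pass: Lce1l, Lce1m and Krt77 fell (-1.16 ± 0.25, adjusted p = 0.00309, then -0.74 ± 0.17, adjusted p = 0.00351, then -0.78 ± 0.19, adjusted p = 0.0056), and Rptn rose by 1.60 ± 0.42 (adjusted p = 0.00892). The share that passed in this list was below that of all genes in both directions (11.1% higher and 11.1% lower, against 12.5% and 21.4%). Against vehicle skin the list had 36 of 36 members above 0 and a median of 0.87, with 2 members past the threshold (0.521% of all genes) and 25 at an unadjusted p under 0.05 (15.7% of all genes). Vehicle skin against day 0 had 0 higher and 26 lower of these genes. The basal list had 0 and 3 in the blocked fit, 1 and 6 without mouse 4 and 0 and 11 without mouse 6, the wound-edge list had 6 and 0 in the blocked fit, 2 and 1 without mouse 4 and 3 and 1 without mouse 6, and the differentiation list had 4 and 0 in the blocked fit, 2 and 0 without mouse 4 and 0 and 3 without mouse 6 (genes higher and lower). For Krt18 (0.0804), Krt17 (0.0637), Lce1l (0.0955), Lce1m (0.0682), Krt77 (0.18) and Rptn (0.0575) in the blocked fit, for Krt18 (0.103), Lce1l (0.116), Lce1m (0.0966) and Krt77 (0.0994) without ruxolitinib mouse 4 and for Rptn (0.141) without ruxolitinib mouse 6 the call was lost. 6 day-0 arrays of Krt18 were at background.

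Growth factor and protease lists of the wound response held few genes that passed. Of 13 EGF receptor family genes 2 rose, 2 fell and 9 did not pass (15.4% higher and 15.4% lower, against 12.5% and 21.4% of all genes). The ligand gene Epgn read 10.46 and 10.34 with ruxolitinib, against 6.80 (5.29 to 9.03) at day 0, and rose by 3.47 ± 0.71 (adjusted p = 0.00193). Hbegf read 7.53 and 7.17 with ruxolitinib, against 5.67 (5.17 to 7.68) at day 0, and rose by 1.51 ± 0.50 (adjusted p = 0.0312). Erbb2 read 6.33 and 7.06 with ruxolitinib, against 8.59 (8.27 to 9.31) at day 0, and fell by 2.001 ± 0.33 (adjusted p = 0.00041), and Adam17, which sheds these ligands, fell by 0.51 ± 0.15 (adjusted p = 0.02). Of 19 AP-1 and immediate early genes 3 rose, 0 fell and 16 did not pass (15.8% higher and 0% lower). Beside Fosl1 these were Dusp6 (1.29 ± 0.27, adjusted p = 0.00219) and Ier3 (1.06 ± 0.29, adjusted p = 0.0126), and the phosphatase gene Dusp1 stood at 0.77 ± 0.30 (adjusted p = 0.0587). Of 13 metalloproteinase and inhibitor genes 3 rose, 2 fell and 8 did not pass (23.1% higher and 15.4% lower). The stromelysin gene Mmp3 read 8.86 and 7.41 with ruxolitinib, against 6.38 (5.71 to 6.84) at day 0, and rose by 1.81 ± 0.38 (adjusted p = 0.00241). The inhibitor gene Reck read 8.26 and 8.63 with ruxolitinib, against 5.84 (3.86 to 6.57) at day 0, and rose by 2.66 ± 0.46 (adjusted p = 0.000609). The gelatinase gene Mmp9 read 2.99 and 3.09 with ruxolitinib, against 5.79 (4.67 to 7.50) at day 0, and fell by 2.82 ± 0.60 (adjusted p = 0.00244), and Mmp14 fell by 0.92 ± 0.24 (adjusted p = 0.00834). In vehicle skin against day 0, 3 EGF receptor family, 6 AP-1 and 4 metalloproteinase genes were higher, and 6, 1 and 2 lower. The EGF receptor list had 2 and 0 in the blocked fit, 1 and 1 without mouse 4 and 1 and 1 without mouse 6, the AP-1 list had 5 and 0 in the blocked fit, and the metalloproteinase list had 1 and 0 in the blocked fit, 1 and 2 without mouse 4 and 2 and 1 without mouse 6 (genes higher and lower). For Erbb2 (0.0582), Adam17 (0.271), Mmp3 (0.0737), Mmp9 (0.0518) and Mmp14 (0.146) in the blocked fit, for Hbegf (0.192), Adam17 (0.124), Ier3 (0.0993) and Mmp3 (0.108) without ruxolitinib mouse 4, for Hbegf (0.106), Adam17 (0.126), Ier3 (0.0704) and Mmp14 (0.178) without ruxolitinib mouse 6 and for Hbegf (0.052) without day-0 mouse 4 the call was lost. Probe sets of Mmp9 (-2.92 to -0.81) differed from one another by over 1 log2 unit.

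Cell cycle genes set the 2 ruxolitinib mice apart. Their mean level was 8.37 in mouse 4 and 7.49 in mouse 6, against 8.29 and 7.95 in the same mice at day 0 and 7.95 to 8.62 over all day-0 arrays. Mouse 4 thus lay inside the day-0 range and mouse 6 below it, and the median difference of mouse 6 from mouse 4 over these genes was -0.95. Of 37 genes 3 rose, 4 fell and 30 did not pass (8.11% higher and 10.8% lower, below the 12.5% and 21.4% of all genes). In vehicle skin 0 of these cell cycle genes were higher and 28 lower than at day 0. The mitotic cyclin gene Ccnb2 read 6.99 and 5.15 with ruxolitinib, against 7.83 (7.30 to 8.43) at day 0, and fell by 1.80 ± 0.50 (adjusted p = 0.0123). The kinesin gene Kif20a fell by 1.32 ± 0.39 (adjusted p = 0.0179) and the replication helicase gene Mcm7 fell by 0.92 ± 0.30 (adjusted p = 0.0303), while Ccne1, the cyclin of entry into DNA synthesis, rose by 0.92 ± 0.24 (adjusted p = 0.00825). Against vehicle skin the list had 37 of 37 members above 0, a median of 1.22 and 1 member past the threshold (0.521% of all genes). Vehicle means were 6.66 and 6.73, so both ruxolitinib arrays lay above both vehicle arrays. The cell cycle list had 0 and 1 in the blocked fit, 0 and 6 without mouse 4 and 1 and 0 without mouse 6 (genes higher and lower). For Ccnb2 (0.141), Mcm7 (0.237) and Ccne1 (0.122) in the blocked fit, for Mcm7 (0.0691) and Ccne1 (0.147) without ruxolitinib mouse 4 and for Ccnb2 (0.316), Kif20a (0.254) and Mcm7 (0.285) without ruxolitinib mouse 6 the call was lost. Probe sets of Mcm7 (-1.48 to -0.33) differed from one another by over 1 log2 unit.

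Most fibroblast and endothelial markers rose against day 0. Of 15 fibroblast markers 12 rose, 1 fell and 2 did not pass (80% higher and 6.67% lower, median 1.51). Of 32 collagen and matrix genes 12 rose, 2 fell and 18 did not pass (37.5% higher and 6.25% lower). Of 23 endothelial markers 15 rose, 1 fell and 7 did not pass (65.2% higher and 4.35% lower, median 1.35). The shares of all genes were 12.5% and 21.4%. Within mice 4 and 6 the median own-mouse differences were 1.24 and 1.53 for fibroblast and 0.69 and 1.36 for endothelial markers. For collagen and matrix genes they were 0.21 and 1.04, against a median of 0.85 over all 9 day-0 arrays. Of these 32 genes 19 moved the same way in both mice. Vehicle skin against the same day-0 arrays had 9 higher and 1 lower fibroblast, 10 and 3 collagen and 20 and 1 endothelial genes. Between ruxolitinib and vehicle skin 0 members of these lists passed (limma). Below 0 against vehicle lay 19 of 23 endothelial (median -0.41) and 1 of 15 fibroblast markers (median 0.35). Islr, a mesenchymal marker, read 6.84 and 6.94 with ruxolitinib, against 3.67 (2.10 to 4.46) at day 0, and rose by 3.35 ± 0.50 (adjusted p = 0.000217). The collagen-binding proteoglycan gene Lum read 6.70 and 7.66 with ruxolitinib, against 4.10 (2.41 to 4.92) at day 0, and rose by 3.21 ± 0.47 (adjusted p = 0.000178). Pi16 and Mfap5, genes of the outer dermal fascia, rose (3.03 ± 0.65, adjusted p = 0.00268, then 2.96 ± 0.43, adjusted p = 0.000161). Among matrix genes Fn1 (2.13 ± 0.38, adjusted p = 0.000751), Fbln5 (2.64 ± 0.47, adjusted p = 0.000746) and Fbln2 (1.68 ± 0.21, adjusted p = 6.15e-05) rose. Procr, described above as one of the largest rises, read 8.06 and 7.66 with ruxolitinib, against 3.19 (2.66 to 4.13) at day 0. Vwf, a clotting protein gene of vessels, read 5.72 and 6.38 with ruxolitinib, against 3.94 (3.32 to 4.90) at day 0, and rose by 1.96 ± 0.39 (adjusted p = 0.00162). Vcam1, an adhesion molecule gene, rose by 1.63 ± 0.34 (adjusted p = 0.00239). Of 12 Schwann cell and nerve genes 3 rose, 1 fell and 8 did not pass (25% higher and 8.33% lower, median 1.29). Their median own-mouse differences were -0.02 and 0.69 in mice 4 and 6, and vehicle skin had 6 higher and 4 lower. Cdh19, S100b and Cntnap2 rose (2.27 ± 0.71, adjusted p = 0.0224, then 1.38 ± 0.44, adjusted p = 0.0248, then 2.38 ± 0.28, adjusted p = 3.52e-05). The nerve growth factor receptor gene Ngfr, also of papilla and basal cells, read 4.64 and 3.65 with ruxolitinib, against 7.91 (7.55 to 8.34) at day 0, and fell by 3.80 ± 0.31 (adjusted p = 1.87e-06). The fibroblast list had 10 and 0 in the blocked fit, 7 and 1 without mouse 4 and 6 and 0 without mouse 6, the collagen list had 6 and 0 in the blocked fit, 7 and 0 without mouse 4 and 5 and 1 without mouse 6, the endothelial list had 5 and 0 in the blocked fit, 10 and 0 without mouse 4 and 4 and 0 without mouse 6, and the Schwann cell list had 1 and 1 in the blocked fit and 1 and 1 without mouse 6 (genes higher and lower). For Vwf (0.0752), Cdh19 (0.128) and S100b (0.226) in the blocked fit, for Pi16 (0.0548) and Cdh19 (0.0531) without ruxolitinib mouse 4 and for Vwf (0.0613), Cdh19 (0.256) and S100b (0.359) without ruxolitinib mouse 6 the call was lost. Probe sets of Pi16 (2.02 to 3.10) differed from one another by over 1 log2 unit. 1 day-0 array of Islr, 1 day-0 array of Lum, 1 day-0 array of Fbln5, 1 day-0 array of Fbln2, 1 day-0 array of S100b and 2 day-0 arrays of Cntnap2 were at background.

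Genes of the skeletal muscle layer under the skin rose or did not pass, and few fat genes passed. Of 41 muscle genes 11 rose, 0 fell and 30 did not pass (26.8% higher and 0% lower, against 12.5% and 21.4% of all genes). The list mean was 10.51 and 10.43 with ruxolitinib against 8.76 to 10.01 at day 0. Within mice 4 and 6 the median difference from their own day-0 arrays was 0.27 and 0.05, against 0.55 over all 9 day-0 arrays. Set against the same day-0 arrays, vehicle skin had 29 higher and 0 lower of these muscle genes, and tofacitinib skin 31 and 0. Against vehicle skin 39 of the 41 lay below 0, with a median of -0.40 and 0 past the threshold (limma; 1 at an unadjusted p under 0.05). Actc1, an actin gene of developing or regenerating muscle, read 5.49 and 6.31 with ruxolitinib, against 2.87 (2.51 to 3.74) at day 0, and rose by 3.04 ± 0.45 (adjusted p = 0.000212). The myosin-binding protein gene Mybph read 9.67 and 10.05 with ruxolitinib, against 6.20 (5.11 to 7.01) at day 0, and rose by 3.69 ± 0.43 (adjusted p = 3.16e-05). Of 26 adipocyte genes 3 rose, 0 fell and 23 did not pass (11.5% higher and 0% lower, near the 12.5% of all genes that were higher). Vehicle skin had 4 higher and 3 lower of these adipocyte genes, and tofacitinib skin 11 and 1. Their list mean was 10.31 and 10.47 with ruxolitinib, against 8.01 to 10.15 at day 0, and the median own-mouse differences were 0.24 and 0.14, against 0.68 over all 9 day-0 arrays. The leptin gene Lep read 8.97 and 9.65 with ruxolitinib, against 6.89 (2.31 to 7.93) at day 0, and rose by 3.43 ± 1.08 (adjusted p = 0.0242). Thrsp and Acaca, of fatty acid synthesis, rose (2.72 ± 0.99, adjusted p = 0.0454, then 0.55 ± 0.19, adjusted p = 0.0324), and Pck1 stood at 2.80 ± 1.06 (adjusted p = 0.0543). The spread of the day-0 arrays was widest here, with mice 1, 3, 8 and 9 lowest (plot of list means by array). Without these 4 arrays, a choice made after seeing the data, the counts higher and lower were 5 and 0 for adipocyte, 10 and 0 for muscle, 13 and 0 for fibroblast and 14 and 1 for endothelial genes. The part that the depth of a biopsy has in these dermal, fat and muscle values was not tested. The muscle list had 2 and 0 in the blocked fit, 6 and 0 without mouse 4 and 5 and 0 without mouse 6, and the adipocyte list had 0 and 0 in the blocked fit, 1 and 0 without mouse 4 and 0 and 0 without mouse 6 (genes higher and lower). For Lep (0.103), Thrsp (0.201) and Acaca (0.299) in the blocked fit, for Lep (0.0985), Thrsp (0.126) and Acaca (0.202) without ruxolitinib mouse 4, for Lep (0.19), Thrsp (0.291) and Acaca (0.133) without ruxolitinib mouse 6, for Thrsp without any one of 4 day-0 arrays (0.0568 to 0.0646) and for Thrsp (0.0578) without tofacitinib mouse 7 the call was lost. 1 day-0 array of Lep was at background.

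**Figure D3:**
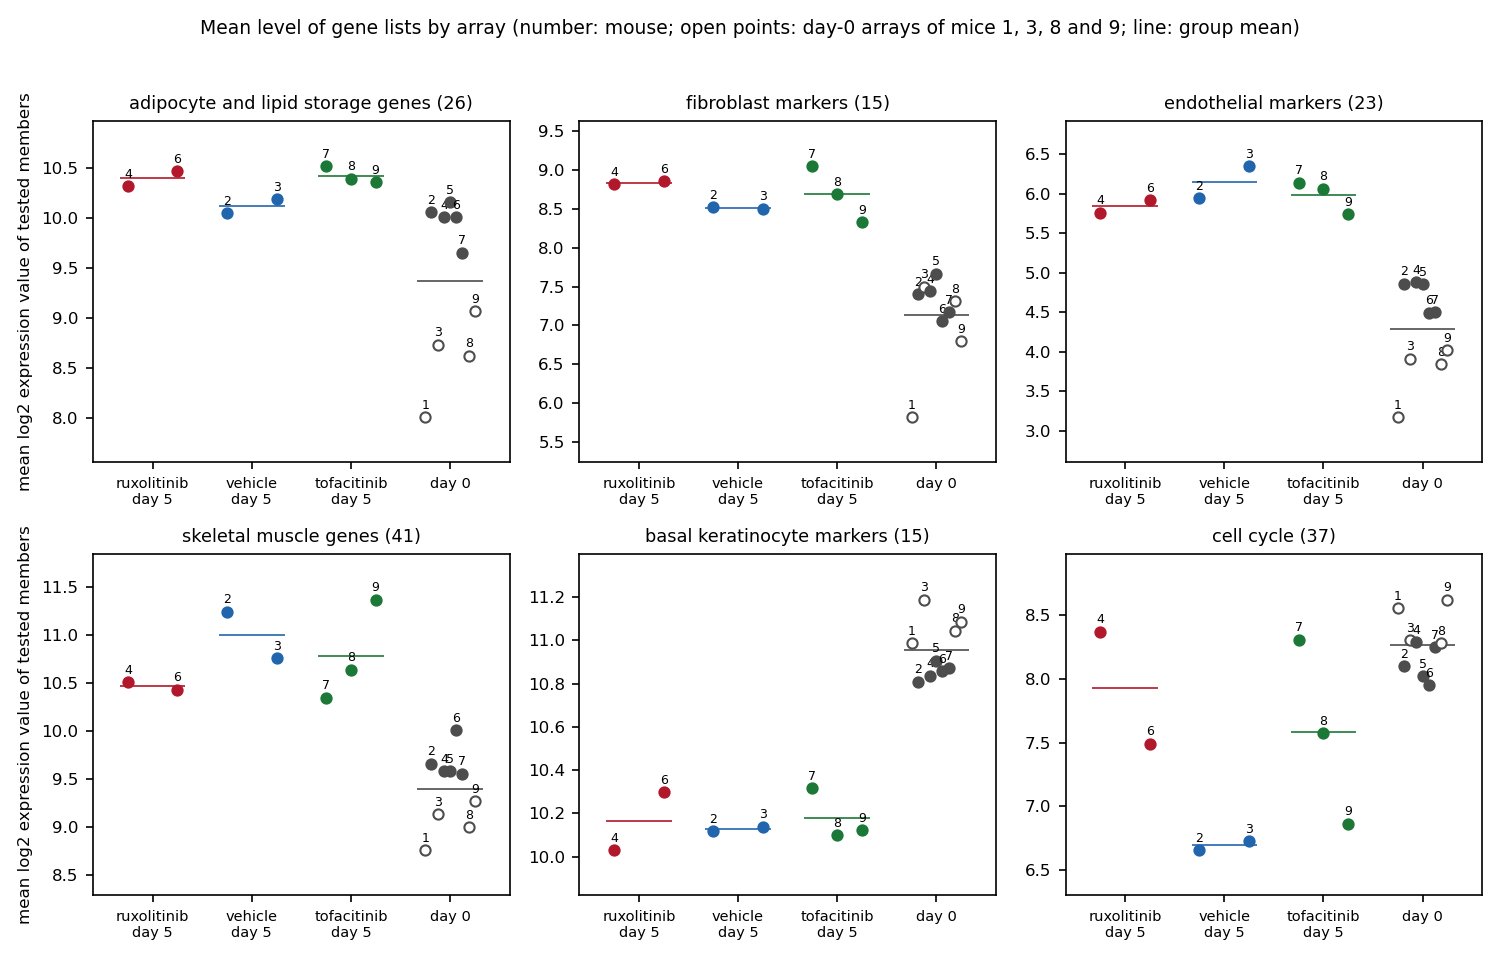
Mean log2 expression value of the tested members of 6 gene lists in each array, grouped as ruxolitinib, vehicle and tofacitinib at day 5 and day 0, with the mouse number beside each point and a line at the group mean. Open points are the day-0 arrays of mice 1, 3, 8 and 9. Ruxolitinib arrays lie above every day-0 array for fat, fibroblast, endothelial and muscle genes and below every one for basal keratinocyte genes, and the 2 mice differ in cell cycle genes.

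Metabolic and daily rhythm lists held genes that rose and genes that fell, in shares given beside those of all genes (12.5% higher and 21.4% lower). In vehicle skin against day 0, 1 sterol and sebaceous, 5 clock and 7 oxidative stress genes were higher, and 9, 4 and 6 lower. Of 23 sterol synthesis and sebaceous genes 5 rose, 4 fell and 14 did not pass (21.7% higher and 17.4% lower): Cyp51, of cholesterol synthesis, and Fads2, of lipid desaturation, rose (0.91 ± 0.21, adjusted p = 0.00469, then 0.92 ± 0.16, adjusted p = 0.000751), and Scd3, a sebaceous desaturase gene, and Srebf2 fell (-1.87 ± 0.42, adjusted p = 0.00361, then -0.55 ± 0.16, adjusted p = 0.0186). Of 19 circadian clock genes 5 rose, 4 fell and 10 did not pass (26.3% higher and 21.1% lower). Nr1d1, a clock repressor gene, read 7.21 and 7.82 with ruxolitinib, against 9.71 (8.77 to 10.25) at day 0, and fell by 2.20 ± 0.34 (adjusted p = 0.00028). Per2 read 8.60 and 8.96 with ruxolitinib, against 6.87 (6.11 to 7.65) at day 0, and rose by 1.87 ± 0.33 (adjusted p = 0.000746). Cry1, a clock repressor, rose by 1.57 ± 0.24 (adjusted p = 0.000257) and Nfil3, a clock output factor, rose by 2.14 ± 0.34 (adjusted p = 0.000313). No source used here gives the hour of each biopsy, so the part of the time of day in these values was not tested. Of 26 oxidative stress and xenobiotic genes 5 rose, 7 fell and 14 did not pass (19.2% higher and 26.9% lower), with Nfe2l2 (NRF2, 0.74 ± 0.13, adjusted p = 0.000575), its target Srxn1 (1.10 ± 0.16, adjusted p = 0.000159) and Tiparp, a target of the aryl hydrocarbon receptor (1.19 ± 0.25, adjusted p = 0.00225), higher and the glutathione transferase gene Gsta2 lower (-0.79 ± 0.19, adjusted p = 0.00485). The sterol list had 0 and 1 in the blocked fit, 1 and 3 without mouse 4 and 4 and 1 without mouse 6, the clock list had 4 and 2 without mouse 4 and 3 and 2 without mouse 6, and the oxidative stress list had 3 and 1 in the blocked fit, 3 and 2 without mouse 4 and 4 and 3 without mouse 6 (genes higher and lower). For Cyp51 (0.104), Fads2 (0.0563), Srebf2 (0.391) and Gsta2 (0.0958) in the blocked fit, for Cyp51 (0.0829), Srebf2 (0.148) and Gsta2 (0.0572) without ruxolitinib mouse 4 and for Srebf2 (0.107) without ruxolitinib mouse 6 the call was lost. Probe sets of Per2 (0.50 to 1.86) and Nfe2l2 (-0.997 to 0.73) differed from one another by over 1 log2 unit.

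**Figure D4:**
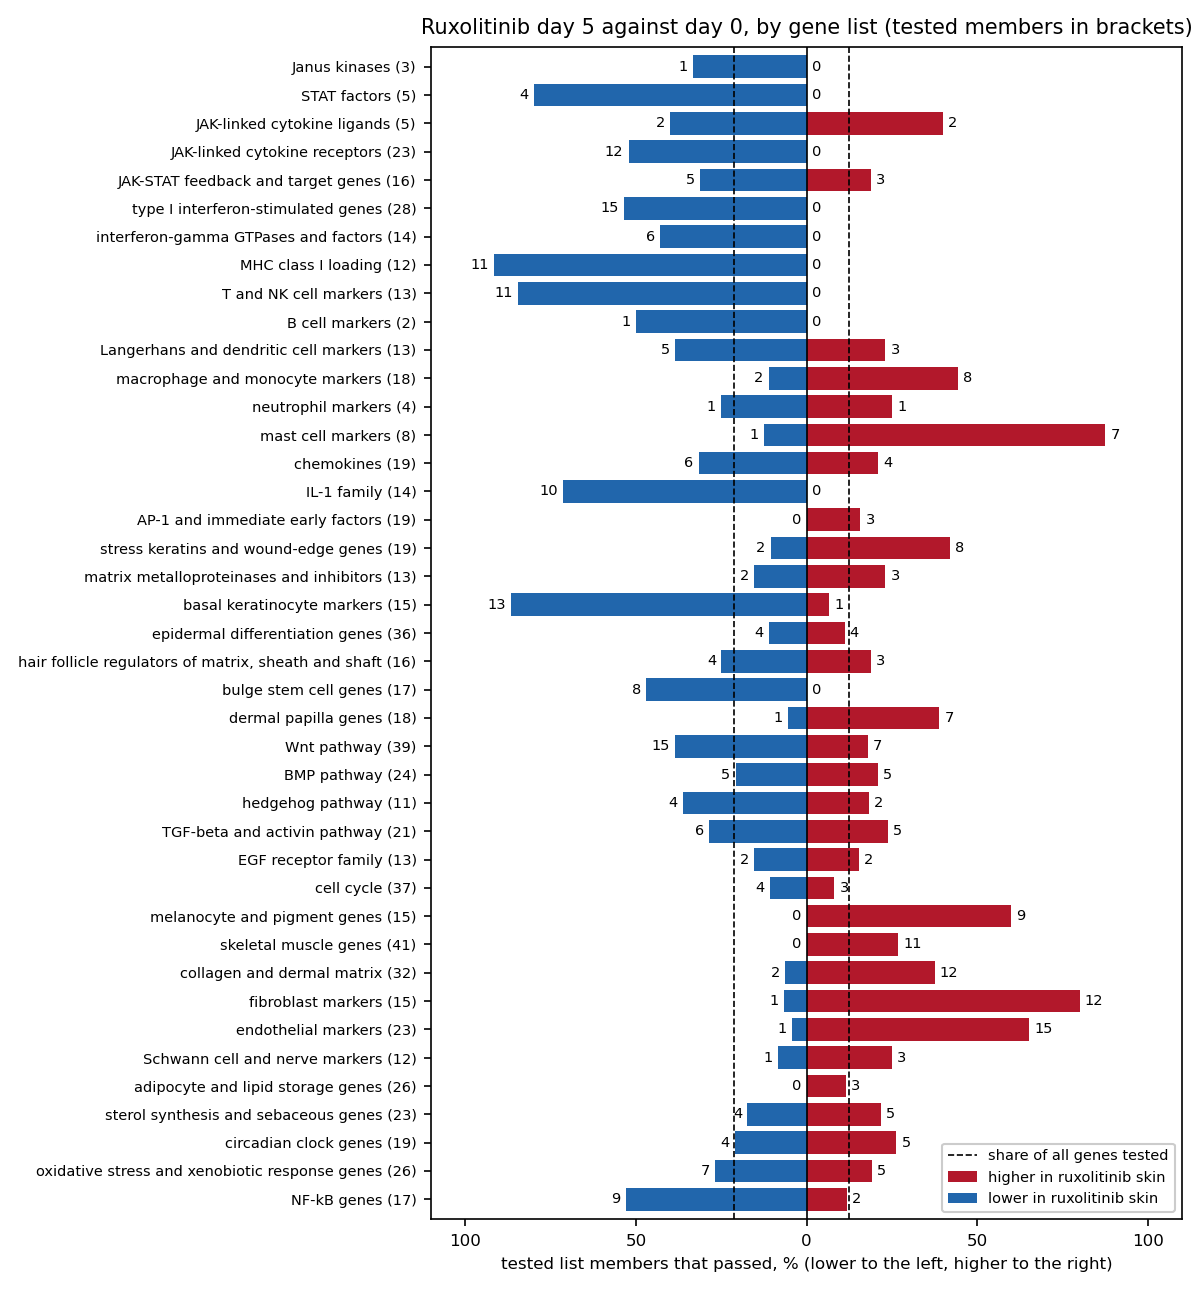
Share of the tested members of each gene list that passed in ruxolitinib skin against day 0, higher to the right and lower to the left, with the number of genes at the end of each bar. Dashed lines mark the shares over all genes tested, 12.5% higher and 21.4% lower. MHC class I, basal keratinocyte, T and NK cell and STAT genes reach furthest to the left, and mast cell, fibroblast, endothelial and pigment genes furthest to the right.

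Ruxolitinib skin was then set against vehicle skin of the same day, which asks what the drug adds to biopsy, solvent and time. Only 0.521% of genes passed (49 higher, 0.405%, and 14 lower, 0.116%), and 1896 genes had an unadjusted p under 0.05. Rel led, at 8.53 and 8.37 with ruxolitinib, against 4.39 and 4.19 with vehicle (4.17 ± 0.33, adjusted p = 2.77e-05). Shh read 7.45 and 5.30 with ruxolitinib, against 2.73 and 2.27 with vehicle (3.82 ± 0.79, adjusted p = 0.0453). Tyrp1 read 8.30 and 7.97 with ruxolitinib, against 4.09 and 5.11 with vehicle, and Pmel 7.40 and 6.79 with ruxolitinib, against 3.70 and 4.09 with vehicle. Tgm3, a transglutaminase gene of the cornified envelope, read 7.03 and 6.95 with ruxolitinib, against 4.11 and 3.61 with vehicle (3.20 ± 0.53, adjusted p = 0.0181). The carboxylesterase gene Ces2f read 5.84 and 6.31 with ruxolitinib, against 2.70 and 2.64 with vehicle (3.44 ± 0.56, adjusted p = 0.018). In Tgm3, Ces2f, Tyrp1 and Pmel both ruxolitinib arrays lay above both vehicle arrays by over 2 log2 units. The phospholipase gene Pla2g4f read 8.84 and 9.34 with ruxolitinib, against 6.74 and 5.49 with vehicle (3.01 ± 0.51, adjusted p = 0.0204). The lipid phosphatase gene Mtmr7 read 7.35 and 6.30 with ruxolitinib, against 3.73 and 3.48 with vehicle (3.09 ± 0.62, adjusted p = 0.0391). For Tgm3, Ces2f and Pla2g4f ruxolitinib skin did not pass against day 0 while vehicle skin lay lower. Of the 49 genes higher than in vehicle skin, 22 were also higher than at day 0, 10 were lower than at day 0 and 17 did not pass against day 0. 33 of them had fallen from day 0 in vehicle skin. These comparisons share the vehicle and day-0 arrays.

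The genes lower than in vehicle skin included Ifi202b, an interferon-inducible DNA-binding protein gene, at 5.73 and 8.68 with ruxolitinib against 11.65 and 11.27 with vehicle (-4.21 ± 0.78, adjusted p = 0.031), and the stromelysin gene Mmp10, at 4.63 and 4.15 with ruxolitinib, against 8.76 and 8.19 with vehicle (-4.03 ± 0.65, adjusted p = 0.018). Mouse 6 stood 2.95 log2 units above mouse 4 in Ifi202b, and both stayed below both vehicle arrays. Cntnap2, a gene of axon junctions, read 5.12 and 4.86 with ruxolitinib, against 7.42 and 7.09 with vehicle (-2.26 ± 0.36, adjusted p = 0.018), and the growth factor gene Pdgfb 4.09 and 3.94 with ruxolitinib, against 5.17 and 5.04 with vehicle (-1.07 ± 0.21, adjusted p = 0.0391). The other genes named for a fall against vehicle were Sh2d5, Wfikkn2, Rnd1 and Pibf1, at -2.36, -1.72, -1.63 and -1.62. Rel passed in 4 of 4 fits that left out 1 ruxolitinib or vehicle array, Tyrp1 in 1, Pmel in 2 and Mmp10 in 0. The number of genes past the threshold ranged from 1 to 16 over these 4 fits, and 0 passed in the blocked fit, with an adjusted p of 0.248 for Rel and 1893 genes at an unadjusted p under 0.05. Without tofacitinib mouse 7 the number was 259, with the 4 day-0 arrays that stood apart left out it was 264 and with only the ruxolitinib and vehicle arrays in the fit it was 3.

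**Figure D5:**
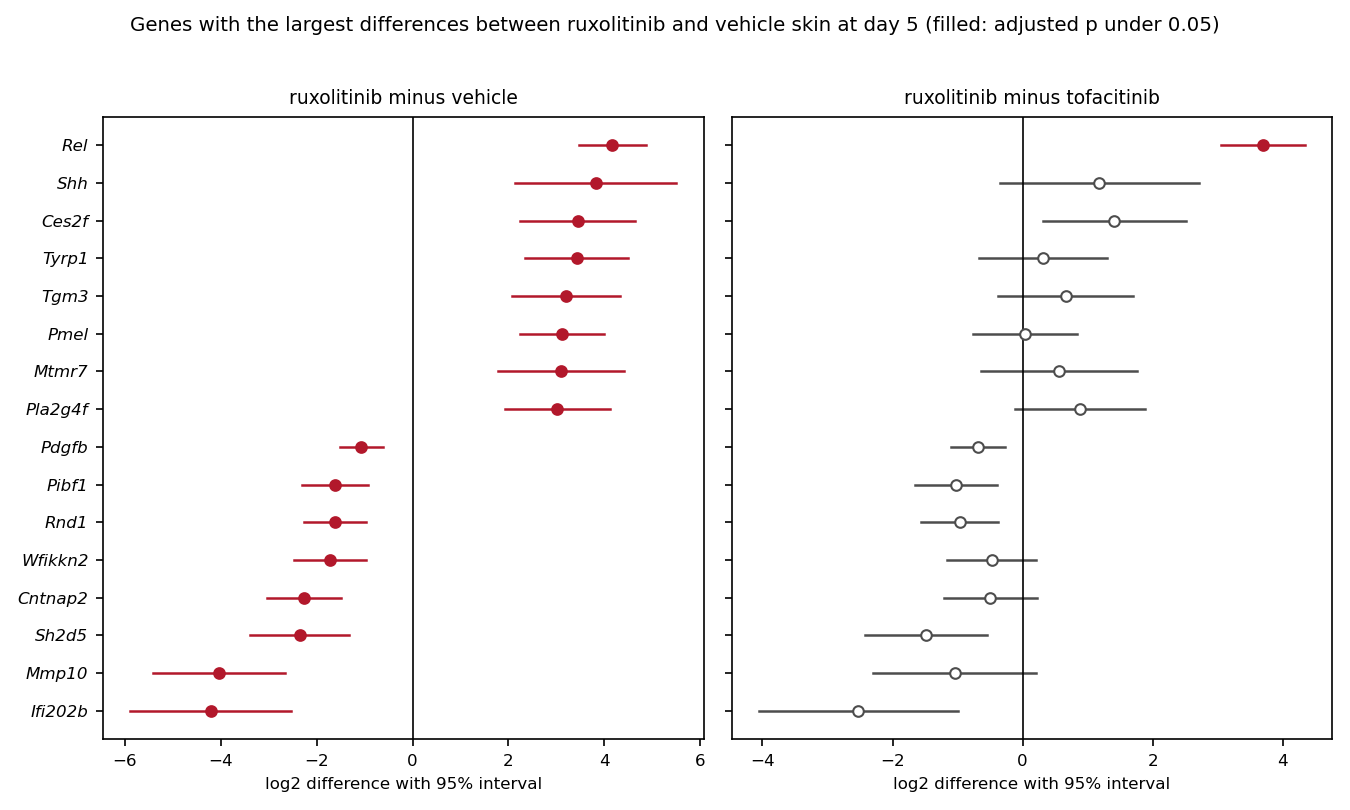
Log2 differences with 95% intervals of the 16 genes that differed most between ruxolitinib and vehicle skin at day 5, against vehicle on the left and against tofacitinib on the right. Filled points passed at an adjusted p under 0.05. All 16 pass against vehicle, by the rule that chose them, and Rel alone of them passes against tofacitinib.

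No gene of the feedback, interferon, class I and T cell lists passed between ruxolitinib and vehicle skin (limma). At an unadjusted p under 0.05 there were 3 of 16 feedback, 1 of 28 type I interferon, 0 of 14 interferon-gamma and 0 of 13 T and NK cell genes. Of all genes 0.521% passed and 15.7% had an unadjusted p under 0.05, so the feedback count was near the share of all genes. For Cish the 95% interval of ruxolitinib minus vehicle ran from -1.52 to 0.99, for Socs3 from -2.24 to -0.61, for Usp18 from -2.01 to -0.01 and for Psmb9 from -1.19 to 0.93. Socs3 averaged 8.02 with ruxolitinib and 9.46 with vehicle, and both ruxolitinib arrays lay below both vehicle arrays. Of the genes called against day 0, the interval of ruxolitinib minus vehicle lay within 1 log2 unit of 0 for 652 of 1512 higher and 1529 of 2592 lower genes. The share of all genes that met this was not counted, so these counts are a description. Over all genes the 5% and 95% points of that difference were -0.83 and 0.93.

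Tofacitinib is the other JAK inhibitor of the study. Both drugs carry a pyrrolopyrimidine ring system, which in ruxolitinib is joined to a pyrazole and in tofacitinib to a piperidine, and as no source used here gives the doses, the values are set side by side at the same day only. 3 genes passed between the drugs (0.0248%), all higher with ruxolitinib, 0 lower (limma), with 685 genes (5.67%) at an unadjusted p under 0.05. Rel read 8.53 and 8.37 with ruxolitinib against 5.37, 4.24 and 4.80 with tofacitinib, a difference of 3.69 ± 0.30 (adjusted p = 4.11e-05). Cdk13, a transcription kinase gene, read 10.20 and 9.33 with ruxolitinib, against 7.71, 6.50 and 7.61 with tofacitinib (2.55 ± 0.36, adjusted p = 0.0212), and Prmt6, an arginine methyltransferase gene, 6.30 and 6.32 with ruxolitinib, against 5.29, 4.76 and 5.05 with tofacitinib (1.28 ± 0.19, adjusted p = 0.0275). For Rel and Cdk13 both ruxolitinib arrays lay above all other 14 arrays. Rel had 1 kept probe set, so its values rest on that probe set alone. Any Rel probe set that the filter removed was not examined. In the other 2 genes the probe sets disagreed: the second probe set of Cdk13 stood at -0.03 in ruxolitinib minus tofacitinib and that of Prmt6 at 0.21. The histone methyltransferase gene Nsd3 (1.21 ± 0.21, adjusted p = 0.0988) and Wdr33 (1.30 ± 0.25, adjusted p = 0.237), which did not pass, had probe sets from -0.93 to 1.19 and from -0.53 to 1.23. With the mean of the probe sets Cdk13 (adjusted p = 0.149) and Prmt6 (0.609) did not pass.

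Among genes lower with ruxolitinib than with tofacitinib, the 5 with the smallest p were the protease gene Tmprss11a (-2.64 ± 0.57, adjusted p = 0.254), Rpusd4 (-1.13 ± 0.23, adjusted p = 0.237), Slc2a4rg-ps (-1.10 ± 0.24, adjusted p = 0.254), Cmtr2 (-0.93 ± 0.20, adjusted p = 0.237) and Cyb561d1 (-0.87 ± 0.18, adjusted p = 0.237). For genes described above, the 95% interval of ruxolitinib minus tofacitinib ran from -1.73 to 0.56 for Cish, from -0.79 to 0.70 for Socs3, from -0.87 to 0.96 for Usp18, from -0.68 to 1.30 for Tyrp1 and from -0.35 to 2.71 for Shh. Among the 15 pigment, 28 type I interferon and 12 class I genes 0 passed between the drugs (limma; 0, 0 and 0 at an unadjusted p under 0.05), with medians of 0.11, 0.05 and -0.08. Mouse 7, whose description names ruxolitinib, is among the tofacitinib arrays: without it 9 genes passed, without mouse 9 1 and without ruxolitinib mouse 4 1, Rel being among them each time (adjusted p of 1.13e-05, 0.000467 and 0.00337). In the blocked fit 0 passed, at an adjusted p of 0.364 for Rel. A p that misses the threshold does not show that both drugs act alike.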

How the data were processed

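RNA of whole dorsal skin was measured on 16 Affymetrix mouse arrays of 45101 probe sets. Per the labels' protocols, RNA was extracted with a Qiagen column kit and amplified with the NuGEN Ovation kit. The deposited values are log2 expression values made by the authors with GCRMA, per the submitters' processing notes; whether all arrays were normalized together is not given in the sources used here.

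Of the probe sets, 34958 carried 1 gene symbol in the platform annotation, 932 several and 9211 were not listed. Only the first were used, with symbols checked by gene ID against RefSeq. Probe sets above log2 4 in at least 2 arrays were kept, and a gene took the one of highest mean (12087 genes). A gene under log2 4 in every day-0 array, such as Tyr, Gabra3, Krt25, Bmp5, Shh, Cxcl13 or Actc1, was kept only through day-5 arrays. Where such a gene rose, the filter favoured that direction, so its pass is no independent support. limma (3.58.1, R 4.3.3) fitted a mean per group to all 16 arrays, mouse being a random block (consensus correlation 0.0982) and eBayes, two-sided, with Benjamini-Hochberg adjustment over all genes.

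The labels give arrays of one mouse number as the same animal, so the blocked fit is paired by design. Deviations from the group means of a day-5 array and its own day-0 array correlated at -0.183 to 0.178, above 0.1 in 2 of 7 pairs. Replicates are separate mice. The scripts were tested on simulated data.

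Named genes were the 12 largest rises and falls against day 0 with no overlap of arrays and one sign in both mice, the 8 largest each way against vehicle and tofacitinib (or, with fewer than 5 passed, the 5 of smallest p), the 4 members of each list with the smallest p against day 0, and any tested Janus kinase, STAT, ligand, receptor or feedback gene, without predicted genes. Krt5 and Krt10 were added to check the tissue. The members and lists were chosen with earlier results of these data known. Alternatives changed the block, the arrays fitted, normalization, filter, probe set choice, variance trend and size of change.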

Additional observations from a re-analysis of the deposited data

Results flagged for a closer look

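Among the genes described above, 16 had 1 day-0 array far from the other 8, by a gap to its nearest neighbour that was large for the range of the 9 (Dixon's test at 95%). Chance alone flags about 1 in 20 such groups, and the range of the other 8 arrays is given after each value. Mouse 1 gave the highest day-0 value for Jak2 (10.85 against 10.45 to 10.65). Mouse 1 gave the lowest day-0 value for C1qa (2.47 against 3.36 to 4.11), Cdh19 (2.57 against 4.54 to 6.44), Il6st (9.78 against 10.45 to 10.88), Nr1d1 (8.77 against 9.57 to 10.25) and Reck (3.86 against 5.53 to 6.57). Mouse 3 gave the highest day-0 value for Gabra3 (3.40 against 1.81 to 2.45). Mouse 3 gave the lowest day-0 value for Tyrp1 (3.11 against 4.13 to 4.95). Mouse 7 gave the highest day-0 value for Fosl1 (8.47 against 2.56 to 5.32), Hbegf (7.68 against 5.17 to 6.18), Ier3 (10.96 against 9.66 to 10.31) and Nr4a3 (10.08 against 5.55 to 7.80). Mouse 8 gave the highest day-0 value for Actc1 (3.74 against 2.51 to 2.99) and H2-DMa (6.91 against 5.29 to 6.11). Mouse 8 gave the lowest day-0 value for Lcn2 (2.09 against 2.81 to 3.36). Mouse 9 gave the highest day-0 value for Krt25 (2.82 against 1.95 to 2.37). Fosl1, Hbegf, Ier3 and Nr4a3, which respond early to stimulation, share the high array of mouse 7.

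The change from day 0 differed between ruxolitinib and vehicle skin in 17 of the genes described, by the test of the difference itself (limma, adjusted p under 0.05). These are the differences of ruxolitinib from vehicle at day 5, since both share the day-0 arrays. All of them but Tyr were named because they passed this same test, and those against tofacitinib for their small p in that test. Their passes are thus a description and no separate support. On the log2 scale the difference was 3.44 for Ces2f, 3.09 for Mtmr7, 3.01 for Pla2g4f, 3.13 for Pmel, 4.17 for Rel, 3.82 for Shh, 3.20 for Tgm3 and 3.42 for Tyrp1. It was -2.26 for Cntnap2, -4.21 for Ifi202b, -4.03 for Mmp10, -1.07 for Pdgfb, -1.62 for Pibf1, -1.63 for Rnd1, -2.36 for Sh2d5 and -1.72 for Wfikkn2. Tyr, at background in both vehicle arrays, was at least 3.91-fold higher than in vehicle skin. Between ruxolitinib and tofacitinib skin the difference was 2.55 for Cdk13, 1.28 for Prmt6 and 3.69 for Rel. In the fit with the mouse as a block none of these calls held. Without vehicle mouse 2, and likewise without ruxolitinib mouse 4, 16 of the 17 calls against vehicle were lost, and without ruxolitinib mouse 4 the calls of 2 of the 3 genes against tofacitinib.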

How the results depend on the processing

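The 4104 genes called in ruxolitinib skin against day 0 numbered 1324 with the mouse as a fixed block (replicate block) and 1877 with an absolute log2 difference of at least 1. They ranged from 1999 (without ruxolitinib mouse 6) to 4470 (without tofacitinib mouse 7) when 1 array was left out. Of the calls, 1275 were kept with the same direction in the blocked fit, 2152 without ruxolitinib mouse 4 and 1925 without ruxolitinib mouse 6, and 0 turned sign in these 3 fits. With the mean of a gene's probe sets 3665 were kept and 65 turned sign. No replicate block, only the groups compared, quantile normalization, no filter, a filter at log2 6 and a variance trend gave 3516 to 4409 calls. Of 178 named genes called against day 0, the blocked fit lost 67, leaving out mouse 4 lost 40 and leaving out mouse 6 lost 32. Against vehicle, 63 genes became 0 in the blocked fit, 3 in a fit of the 2 groups alone, 110 when probe sets were averaged and 264 with the 4 day-0 arrays that stood apart (mice 1, 3, 8 and 9) left out, a setting chosen after seeing the data, and 1 to 259 when 1 array was left out. Against tofacitinib, 3 genes became 0 in the blocked fit and in a fit of the 2 groups alone, 5 when probe sets were averaged, 1 without those 4 day-0 arrays, and 1 to 9 when 1 array was left out. Vehicle against day 0 had 6178 calls, 3701 in the blocked fit, 3071 with a log2 difference of at least 1 and 3470 to 6487 without 1 array. Tofacitinib against day 0 had 6055 calls, 2380 with a log2 difference of at least 1 and 3969 to 6344 without 1 array. The causes of these shifts were not tested, apart from the loss of arrays or genes that a setting itself makes.

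Differences that changed sign were all small or uncalled, except Nfe2l2. Its probe sets disagreed, and their mean stood at -0.13 against day 0. Against day 0 the blocked fit gave -0.074 for Il6st and -0.027 for Stat5b, and Stat5b stood at -0.039 without the 4 day-0 arrays. Against vehicle Kitl stood at 0.21 in the blocked fit, 0.0094 with the mean of probe sets, 0.037 without the 4 day-0 arrays and -0.20 to 0.12 without 1 array, and Psmb9 at 0.38 in the blocked fit and -0.62 to 0.42 without 1 array. Against tofacitinib the blocked fit gave 0.17 for Cish, 0.22 for Socs3 and -0.067 for Tyrp1. Usp18 stood at -0.024 with no replicate block and with only the groups compared. Without 1 array Socs3 ranged from -0.31 to 0.084 and Usp18 from -0.17 to 0.40.

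With 2 ruxolitinib arrays, the number of arrays limits the precision, most of all against vehicle, where the standard error had a median of 0.28 log2 units, against 0.21 for the comparison with day 0. Values near or below 2.43, the highest control probe set, have no order. Where an arm was left with 1 array, that array was assumed to vary like the other groups.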
